A study of Mus musculus with 41 samples.

Results

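Peaks of H3K18la, lactylation of lysine 18 of histone H3, were compared between mouse white adipocytes (ADIPO) and mouse post-ischemia macrophages (PIM). On chromosomes 1 to 19 the ADIPO list held 28212 peaks and the PIM list 31568. Merging peaks that overlapped by at least 1 bp gave 49315 regions, against 112447 regions when all 24 peak lists of the study were merged. A region was ADIPO-only, PIM-only or shared according to the lists with a peak in it, and it was a promoter region if it overlapped the 2000 bp on either side of any annotated transcription start site (TSS). All other regions were distal. The search was for genes of macrophages among the ADIPO regions, and for the regions that the 2 cell types had in common.

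The study profiled H3K18la beside H3K27ac, H3K4me3 and H3K27me3 by CUT&Tag, in which an antibody guides a transposase that cuts and tags the DNA next to the modified histone. Each of the 2 groups used here consisted of 2 samples labelled as strain C57BL/6, whose coverage the authors pooled before peaks were called, so there is 1 list per group, no spread between replicates and no test between the groups. Adipocytes came from the epididymal fat of 10-week-old mice that carried AdipoCre and the NuTRAP reporter, which tags nuclei of cells with Cre, and the tagged nuclei were pulled from frozen, ground tissue on streptavidin beads. PIM came from calf muscle of mice (C57Bl6/J in the study's methods) aged 8 to 12 weeks, 2 days after ligation of the artery that feeds the hind limb, and were sorted as CD45+ CD11b+ F4/80+ CD64+ cells before their nuclei were released. The genes of these 4 proteins (Ptprc, Itgam, Adgre1 and Fcgr1) chose the cells. They are members of the macrophage identity and pan-leukocyte lists below, whose counts are therefore also given without them. Bead-bound nuclei of frozen fat and nuclei of sorted cells differ in preparation as well as in cell type, and these cannot be told apart. In pooled material a smaller share of cells with the mark and less of the mark per cell cannot be told apart either.

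Histone lactylation depends on lactate, which glycolysis supplies, and it occurs with histone acetylation at active promoters and enhancers. White adipocytes store triglycerides, release them as fatty acids by lipolysis and secrete hormones such as adiponectin and leptin, under the control of PPARγ and C/EBP factors. Macrophages that enter injured muscle ingest debris and secrete chemokines and cytokines, and their enhancers are set up by the ETS factor PU.1 with C/EBP and AP-1 factors. Both cell types take up and process lipids.

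The ADIPO list covered 75.6 Mb with a median peak width of 1887 bp, and the PIM list covered 68.0 Mb with a median of 1618 bp. Signal summed over peaks was 2909 Mb in ADIPO and 1923 Mb in PIM, as fragment coverage times bases. These values were not scaled for sequencing depth. The study lists reads per sample, which were not used here, and the peak lists carry no depth, so signal is given as a rank within its own list, with rank 1 for the largest total signal of a peak. Intervals given below are 95% Wilson intervals for a share and Newcombe intervals for a difference of shares. They cover counting error only and treat regions as independent, although neighbouring regions are not. The study's methods describe female mice for both groups, and labels give no sex. The lists went against this at genes of chromosome Y, on which 14 ADIPO and 20 PIM peaks lay. The number of peaks alone does not tell. The H3K4me3 list of gastrocnemius muscle held 22, with a peak at the Xist promoter and none at the Y genes named next. ADIPO peaks lay at the promoters of Uty and Eif2s3y, PIM peaks at those of Uty, Eif2s3y and Ddx3y, and neither list had a peak at the promoter of Xist. No result below uses chromosome Y.

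Sequences are shown for 4 promoters and 4 distal regions that the results turn on, read 5′ to 3′ from GRCm38.p6, the build named mm10 in the labels. The promoters, from RefSeq, are 300 bases long and span the start of Plin1, covered by ADIPO peaks alone, of Csf2ra, with peaks of both lists, and of Laptm5 and Cd68, covered by PIM peaks alone. The distal sequences are the 300 bases centred on the highest coverage in the 2 ADIPO-only and the 2 PIM-only distal regions with the largest total signal, in introns of Nfia, Adcy5, Ankrd33b and Macrod2. Capitals mark matches, on either strand, to the letters GAGGAAGT (PU.1), TTGNNCAA (C/EBP) or TGANTCA (AP-1), with N for any base. Plin1 is at chr7:79732727-79733026, minus strand, Csf2ra at chr19:61228369-61228668, minus strand, Laptm5 at chr4:130913066-130913365, plus strand and Cd68 at chr11:69666121-69666420, minus strand. The distal windows are at chr4:98104243-98104542, plus strand (Nfia), chr16:35217115-35217414, plus strand (Adcy5), chr15:31350058-31350357, plus strand (Ankrd33b) and chr2:140790405-140790704, plus strand (Macrod2).
Plin1 promoter: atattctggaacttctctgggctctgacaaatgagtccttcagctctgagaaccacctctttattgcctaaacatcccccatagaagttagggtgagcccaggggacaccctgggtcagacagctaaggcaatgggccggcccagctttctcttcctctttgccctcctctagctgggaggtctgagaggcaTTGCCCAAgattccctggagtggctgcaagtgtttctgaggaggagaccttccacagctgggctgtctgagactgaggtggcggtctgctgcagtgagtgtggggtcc
Csf2ra promoter: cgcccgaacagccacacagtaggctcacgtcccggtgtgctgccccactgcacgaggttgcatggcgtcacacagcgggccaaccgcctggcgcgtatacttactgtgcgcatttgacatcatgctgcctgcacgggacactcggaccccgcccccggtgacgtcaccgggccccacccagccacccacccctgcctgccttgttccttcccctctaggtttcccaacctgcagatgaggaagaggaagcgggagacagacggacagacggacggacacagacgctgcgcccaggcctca
Laptm5 promoter: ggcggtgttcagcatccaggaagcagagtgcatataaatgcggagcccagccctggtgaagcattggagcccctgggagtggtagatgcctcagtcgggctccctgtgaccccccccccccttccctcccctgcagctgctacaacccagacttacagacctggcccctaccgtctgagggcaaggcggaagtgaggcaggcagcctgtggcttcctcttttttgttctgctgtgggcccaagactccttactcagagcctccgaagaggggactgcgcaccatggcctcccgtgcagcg
Cd68 promoter: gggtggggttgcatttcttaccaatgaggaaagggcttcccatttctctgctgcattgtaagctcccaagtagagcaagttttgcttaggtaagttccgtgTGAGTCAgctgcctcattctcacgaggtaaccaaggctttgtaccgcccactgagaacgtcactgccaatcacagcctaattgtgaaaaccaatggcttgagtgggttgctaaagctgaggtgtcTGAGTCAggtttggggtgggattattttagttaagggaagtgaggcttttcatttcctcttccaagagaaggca
Nfia intron, ADIPO-only: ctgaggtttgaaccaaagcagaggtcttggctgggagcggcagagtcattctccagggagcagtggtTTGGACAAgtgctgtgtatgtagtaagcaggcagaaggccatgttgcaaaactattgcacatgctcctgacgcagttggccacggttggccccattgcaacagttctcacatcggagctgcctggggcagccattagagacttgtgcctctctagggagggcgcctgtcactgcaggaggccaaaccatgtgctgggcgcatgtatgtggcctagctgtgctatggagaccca
Adcy5 intron, ADIPO-only: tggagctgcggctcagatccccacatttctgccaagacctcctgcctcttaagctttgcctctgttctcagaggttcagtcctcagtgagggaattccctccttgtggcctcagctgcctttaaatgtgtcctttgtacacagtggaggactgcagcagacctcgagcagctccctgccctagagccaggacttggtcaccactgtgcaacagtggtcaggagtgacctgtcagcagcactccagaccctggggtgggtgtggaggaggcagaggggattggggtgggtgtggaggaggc
Ankrd33b intron, PIM-only: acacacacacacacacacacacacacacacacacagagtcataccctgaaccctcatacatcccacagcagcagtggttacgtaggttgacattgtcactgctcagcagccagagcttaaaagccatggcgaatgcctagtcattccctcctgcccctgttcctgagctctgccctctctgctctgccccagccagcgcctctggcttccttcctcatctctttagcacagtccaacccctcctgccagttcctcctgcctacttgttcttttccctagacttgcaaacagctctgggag
Macrod2 intron, PIM-only: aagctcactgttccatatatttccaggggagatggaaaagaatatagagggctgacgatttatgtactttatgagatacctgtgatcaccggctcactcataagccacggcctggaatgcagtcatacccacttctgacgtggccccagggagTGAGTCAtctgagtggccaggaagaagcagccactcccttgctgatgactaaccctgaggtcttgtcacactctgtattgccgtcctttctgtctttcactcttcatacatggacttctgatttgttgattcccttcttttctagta

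A match to a C/EBP motif stood in the Plin1 promoter and the Nfia window, and a match to an AP-1 motif in the Macrod2 window and at 2 places in the Cd68 promoter. The Csf2ra and Laptm5 promoters and the Adcy5 and Ankrd33b windows held none of these letters.

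Promoters were shared between adipocytes and macrophages more often than distal regions. Of 18733 promoter regions, 5975 were shared (31.9%, interval 31.2 to 32.6), 6660 were ADIPO-only and 6098 PIM-only. Of 30582 distal regions, 3020 were shared (9.88%, 9.55 to 10.2), 12081 were ADIPO-only (39.5%) and 15481 PIM-only (50.6%). The shared percent was thus 22.0 points higher at promoters (interval 21.3 to 22.8). Median distances of distal regions from the nearest protein-coding TSS were 23.0 kb for ADIPO-only, 21.9 kb for PIM-only and 20.8 kb for shared regions.

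With the 5000 peaks of largest total signal in each list, sharing fell at both kinds of region. Of 4202 promoter regions, 11.4% were shared (10.5 to 12.4), and of 4952 distal regions, 5.65% (5.04 to 6.33). The difference between promoter and distal regions was then 5.72 points (4.57 to 6.89), so its size depended on how many peaks were taken. A peak of the strongest 5000 in 1 list could still overlap a weaker peak of the other, which this count leaves out. When each list was instead divided by rank into 5 groups of equal size and compared with the whole other list, overlap was higher in the strongest than in the weakest group. Of ADIPO distal peaks, 31.3% overlapped a PIM peak in the strongest group and 16.1% in the weakest, and of PIM distal peaks, 29.9% and 12.7% overlapped an ADIPO peak. At promoters these shares were 54.1% and 33.3% for ADIPO, whose highest share was in the next-strongest group (57.1%), and 55.5% and 41.1% for PIM.

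**Figure D1:**
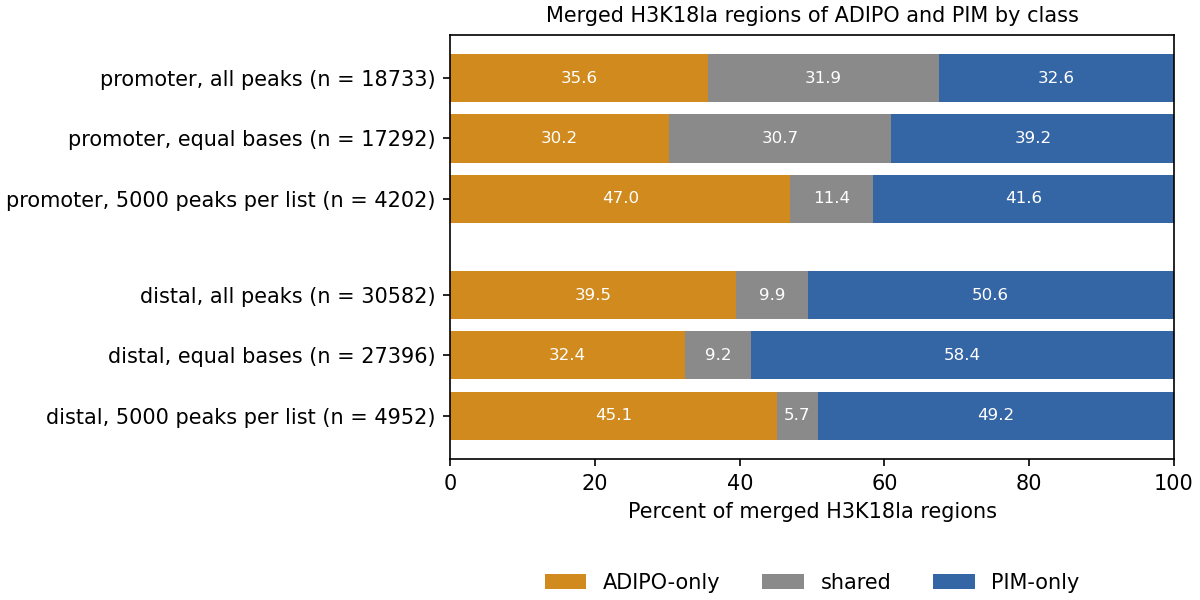
Bars give the percent of merged H3K18la regions that were ADIPO-only, shared or PIM-only, for promoter and distal regions, with all peaks, with the ADIPO list reduced to the bases of the PIM list (equal bases), and with 5000 peaks per list; n is the number of regions. The shared part is 31.9% of promoter and 9.88% of distal regions with all peaks, and 11.4% and 5.65% with 5000 peaks per list.

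The strongest ADIPO-only promoter regions were broad. The first covered 29776 bp on chromosome 13 from 102571974 to 102601749, over the long non-coding RNA gene Gm29927, and the next 30919 bp on chromosome 2 from 148620435 to 148651353, over the small nucleolar RNA gene Gm25866. The third, on chromosome 15 from 102983038 to 103022406, covered exons and introns of Hoxc4, Hoxc5, Hoxc6, Hoxc8 and Hoxc9, homeobox genes that encode position along the body axis. All 3 also had ADIPO H3K27ac, and the Hoxc region had PIM H3K27me3 and PIM H3K4me3. The 10 protein-coding genes with the strongest promoter peak among those called in ADIPO only were Hoxc4, Hoxc5, Hoxc6 and Hoxc8, Fabp12, 2010003K11Rik, Pcx (pyruvate carboxylase), Dolpp1, Miga2 and Acacb (an acetyl-CoA carboxylase). Their peaks ranked 17 to 25 of 28212, and several of these genes share a peak: the 4 Hoxc genes have 1 in common, as do 2010003K11Rik with Pcx and Dolpp1 with Miga2.

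The strongest PIM-only promoter regions were narrower. They lay at Pkd1l2 (chromosome 8, 117065877 to 117081807, 15931 bp), at Clec4d (chromosome 6, 123258405 to 123269419, 11015 bp), a C-type lectin of myeloid cells, and at Ptpre (chromosome 7, 135640349 to 135660262, 19914 bp), a tyrosine phosphatase. All 3 overlapped exons and had PIM H3K27ac and BMDM H3K18la, where BMDM are macrophages grown from bone marrow. The Ptpre region also had ADIPO H3K27ac, and the Pkd1l2 region also had PIM H3K27me3. The 10 leading genes called in PIM only included these 3 with Adssl1, Slc37a2, Dusp27, Gpa33, Lcp1 (L-plastin, an actin-bundling protein of leukocytes) and Igf2r. Their peaks ranked 30 to 76 of 31568, and Dusp27 and Gpa33 share a peak. Slc37a2 was covered over 92.6% of the gene by PIM peaks and over none of it by ADIPO peaks.

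At distal sites the leading ADIPO-only regions were a 20713-bp region within an intron of Nfia (chromosome 4, 98089670 to 98110382), a nuclear factor I gene, and a 24837-bp region within an intron of Adcy5 (chromosome 16, 35198663 to 35223499), an adenylyl cyclase. The next, of 21531 bp, lay between genes on chromosome 2 (27586475 to 27608005). All 3 overlapped ADIPO H3K27ac and H3K18la of gastrocnemius muscle (GAS), and none PIM H3K27ac, while the Nfia region also overlapped a BMDM H3K18la peak. The leading PIM-only distal regions lay within introns of Ankrd33b (chromosome 15, 31334529 to 31354105, 19577 bp) and Macrod2 (chromosome 2, 140781635 to 140796029, 14395 bp), and between genes on chromosome 16 (3641351 to 3663524, 22174 bp). All 3 overlapped PIM H3K27ac, BMDM H3K27ac and BMDM H3K18la, and none ADIPO H3K27ac.

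The strongest shared regions were of another kind. At promoters they were a region at Sfi1 and neighbouring pseudogenes (chromosome 11, 3121659 to 3186740), Gm10801 (chromosome 2, 98662230 to 98663138) and a stretch of pseudogenes on chromosome 1 (24611382 to 24616190). At distal sites they lay in Chl1 (chromosome 6, 103648889 to 103649300, 412 bp) and between genes on chromosome 8 (83756293 to 83757646) and chromosome 2 (98664877 to 98665222, 346 bp). Each of the 6 overlapped a peak in 20 to 22 of the other 22 lists, H3K27me3 lists among them. Such regions were few: 13 shared promoter and 13 shared distal regions were found in at least 20 of the other lists, and without them 31.8% of promoter and 9.84% of distal regions were shared.

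Most adipocyte identity genes had broad peaks in ADIPO. Of 20807 protein-coding genes, 45.6% had an ADIPO peak at a promoter and 38.6% a PIM peak. Peaks of both lists were found at 28.6%, of ADIPO only at 17.0% and of PIM only at 9.99%. All 18 genes of adipocyte identity and adipokines had an ADIPO peak and 7 had a PIM peak. The PIM count was 1 with 5000 peaks per list, 1 with peaks unmerged and a 50% overlap, and 3 when the peak had to cover the gene's own TSS. Of all genes PIM then called 7.99%, 16.0% and 28.4%. The median rank of the promoter peak was 364 of 28212 in ADIPO and 19555 of 31568 in PIM, and the median width was 11786 bp and 1262 bp. ADIPO peaks covered more of the gene (from 2000 bp before the first TSS to the gene end) than PIM peaks did for each of the 18. Cfd (adipsin), Fabp4 (a fatty acid carrier), Car3 (carbonic anhydrase) and Aoc3 (an amine oxidase) led by this measure, with at least 99.8% covered in ADIPO and 0 to 12.4% in PIM. Npr3 and Rbp4, the 2 members outside the 5000 strongest ADIPO peaks, had narrow ones, of 2050 bp at rank 5298 and 2481 bp at rank 8412, and were covered over 6.52% and 23.3%.

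Adipoq, Lep, Pparg and Cebpa are added here for their known roles, and Npr3 and Rbp4 for their weak peaks, after their values were seen. Lep, the leptin gene, was covered over 91.3% in ADIPO, with a peak of 24503 bp, and had no PIM peak. Adipoq, the adiponectin gene, was covered over 57.8% in ADIPO (peak rank 245) and 7.01% in PIM, where its promoter peak ranked 27139. Pparg, the master regulator of adipocyte formation, was covered over 43.2% in ADIPO and 6.36% in PIM. Distal regions nearest to Pparg divided into 8 ADIPO-only and 9 PIM-only regions with none shared, the PIM-only ones 7.46 to 51.9 kb from a Pparg TSS. Of all distal regions only 9.88% were shared, so the lack of a shared one among so few is near the general share. Cebpa, a partner of Pparg, had the peak of rank 2 in ADIPO (57911 bp) and a PIM peak of 5322 bp at rank 3513. Thus at Cebpa both lists had a strong peak.

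Of 15 genes of the lipid droplet and lipolysis, 14 were called in ADIPO and 8 in PIM (53.3%, against 38.6% of all genes), with a median gene coverage of 83.8% and 5.07%. Plin1 (perilipin, which coats the droplet), Plin4, Cidec and Pnpla2 (adipose triglyceride lipase) were covered over 100% in ADIPO, and over 0%, 0%, 0% and 35.1% in PIM. Cidea, a droplet protein better known from brown fat, was called in neither list. Of 19 genes of fatty acid and triglyceride synthesis, all were called in ADIPO and 10 in PIM (52.6%). With 5000 peaks per list PIM had 3 of the 15 and 1 of the 19, where PIM called 7.99% of all genes, and with peaks unmerged and a 50% overlap 4 and 3, where it called 16.0%. Fasn (fatty acid synthase), Scd1 (a desaturase) and Pck1 were covered over 97.4%, 98.3% and 100% in ADIPO and over 0%, 3.17% and 0% in PIM, and Srebf1, which controls this pathway, over 100% and 20.4%.

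Genes of lipid handling, a list chosen as genes that both cell types use, were called in both lists at 14 of 15 genes, against 28.6% of all genes. Of the 9 without a CpG-rich TSS ADIPO called 88.9% and PIM 100%, against 28.9% and 26.5% of all such genes. With 5000 peaks per list ADIPO called 8 and PIM 9 of the 15, where 9.60% and 7.99% of all genes were called. Cd36, a fatty acid and lipoprotein receptor, was covered over 45.3% in ADIPO (rank 1414) and 41.1% in PIM (rank 146). Apoe was covered over 100% and 20.5%, Lpl (lipoprotein lipase) over 87.9% and 6.45%, Acsl1 over 68.2% and 7.52%, and Slc27a1 over 67.7% and 39.8%. Msr1, the macrophage scavenger receptor, was the exception, with 22.1% in PIM and no base in ADIPO. Cd36 was named after its values were seen. More of the gene was covered in ADIPO for 8 of the 15 and in PIM for 7.

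Adipocyte transcription factors were called in ADIPO at 17 of 17 genes and in PIM at 11 (64.7%), against 45.6% and 38.6% of all genes. Of the 10 with a CpG-rich TSS PIM called 60.0%, near the 53.0% of all such genes, and of the other 7 it called 71.4%, against 26.5%. Srebf1, Cebpa, Klf15 and Nr1d1 led by ADIPO coverage, with 72.6% to 100%. Klf15 had no PIM peak. Ebf1, an early B cell factor that also acts in adipocytes, had 41 ADIPO-only distal regions nearest to its TSS and no PIM-only or shared one. The mean number of ADIPO-only distal regions was 6.76 per gene in this list and 0.581 over all genes, and Ebf1 held 41 of the 115 in the list. PIM-only distal regions averaged 1.76 per gene in this list, against 0.744 over all genes.

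**Figure D2:**
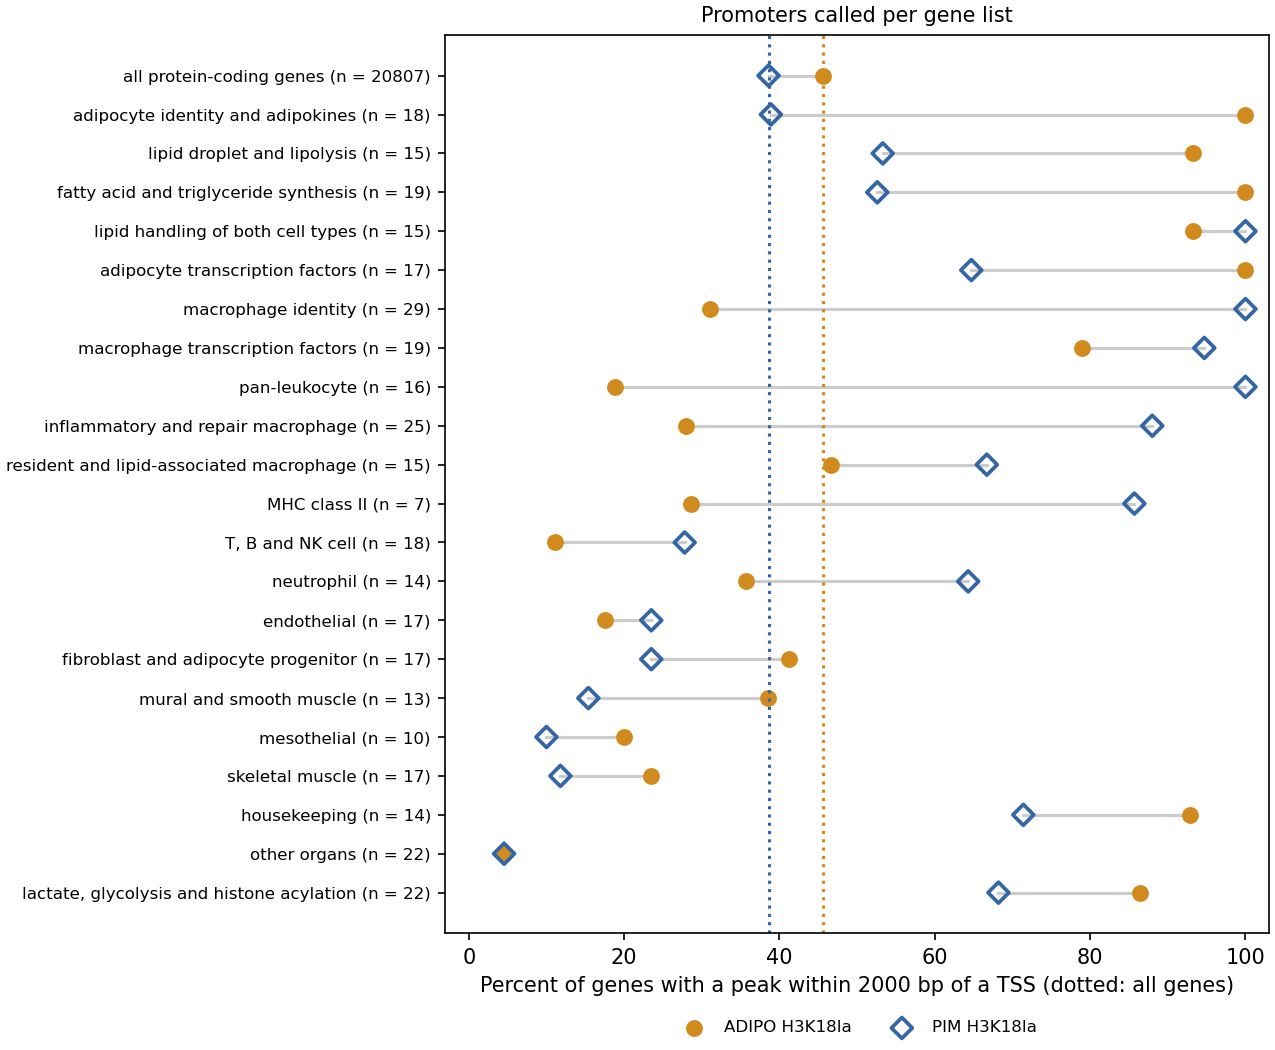
Each row is a gene list with the number of genes measured, and the axis gives the percent of its genes with a peak within 2000 bp of a TSS in ADIPO (filled circles) or PIM (open diamonds). Dotted lines mark all protein-coding genes, 45.6% for ADIPO and 38.6% for PIM, and macrophage identity genes stand at 31.0% in ADIPO and 100% in PIM.

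Of 29 macrophage identity genes, 29 had a promoter peak in PIM and 9 in ADIPO (31.0%, against 45.6% of all genes). Without the 3 of them that encode proteins used in the sort, 26 of 26 were called in PIM and 9 in ADIPO (34.6%). A member of the list, Clec7a, is annotated as a polymorphic pseudogene and was not counted. Among the 28 members whose TSS is not rich in CpG, 9 were called in ADIPO (32.1%), and of all 11295 genes of this kind, 28.9%. The ADIPO share of the list was thus near that of promoters of the same kind, of which PIM called 26.5%. GAS H3K18la, called at 37.0% of all promoters, was found at 7 of the 29, and BMDM H3K18la at 29. ADIPO H3K27ac, called at 47.0% of all promoters, was found at 8.

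The genes used in the sort had no ADIPO peak anywhere along the gene. Ptprc (CD45), Itgam (CD11b), Adgre1 (F4/80) and Fcgr1 (CD64) were covered over 0% in ADIPO and over 10.4%, 9.10%, 1.97% and 28.2% in PIM. Nor was any ADIPO base found at Csf1r, the receptor for the macrophage growth factor, at the complement genes C1qa, C1qb and C1qc, or at Trem2, Tyrobp, Cd163 and Ctss, which were named after their values were seen. In all, 18 of the 29 genes (62.1%) had no ADIPO base and none lacked a PIM base. Without the sort genes these were 15 and 0 of 26. Of all protein-coding genes, 48.7% had no ADIPO base and 55.5% no PIM base, and of those without a CpG-rich TSS, 65.7% and 68.4%. Mpeg1, which encodes perforin-2, had no ADIPO peak at its promoter but was covered over 37.0% in ADIPO and 99.3% in PIM. Mrc1, the mannose receptor, had no ADIPO base either and a single ADIPO-only distal region 12.5 kb from its TSS.

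The 9 macrophage identity genes called in ADIPO were Cd68, Mertk, Lyz2, Cd14, Fcer1g, Siglec1, Csf2ra, Tlr2 and Tlr4. Their ADIPO peaks were 1459 to 3951 bp wide and ranked 3635 to 24291 of 28212, with a median of 5707. For comparison, the median over all called genes was 11688, and PIM peaks at all 29 genes had a median rank of 5455 of 31568 and a median width of 4040 bp. Each of the 9 ADIPO peaks also overlapped a PIM peak. For Tlr4, Tlr2 and Cd14, receptors for bacterial products, the whole ADIPO peak lay within PIM peaks.

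The 9 differed in where the peak lay. The ADIPO peak assigned to Cd68, a lysosomal glycoprotein, was at rank 3831 and lay 1685 bp from a Cd68 TSS, over the promoter of Mpdu1, and covered 4.19% of Cd68. The Cd68 promoter sequence printed above was not covered by ADIPO peaks and was covered over 100% by PIM peaks. The peak assigned to Lyz2, which encodes lysozyme, lay 1988 bp from its TSS at rank 24291 and covered 0.186% of the gene, against 70.5% in PIM. The ADIPO peak of Fcer1g, the Fc receptor gamma chain, was 3951 bp wide at rank 4478 and also lay over the promoter of another protein-coding gene. The other 6 had an ADIPO peak over their own TSS and over no promoter of another protein-coding gene.

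Cd14 had an ADIPO peak of 2638 bp at rank 4384, and a PIM peak of 5114 bp at rank 1048. Tlr4 had one of 2708 bp at rank 5707 in ADIPO and of 7332 bp at rank 281 in PIM, and 5 ADIPO-only, 21 PIM-only and 1 shared distal regions were nearest to it. Tlr2 had an ADIPO peak of 1516 bp at rank 15217 and a PIM peak at rank 471. In these 3 genes the PIM peak was wider and stood higher in its list. Csf2ra, a subunit of the GM-CSF receptor, had an ADIPO peak at rank 7298 and a PIM peak at rank 1641, with 51.0% and 100% of the printed promoter covered. Siglec1 (CD169), Mertk, a receptor for dying cells, and Fcer1g went the other way. Siglec1 ranked 3635 in ADIPO and 15981 in PIM, Mertk 12966 and 27249, and Fcer1g 4478 and 6205. ADIPO H3K27ac overlapped the ADIPO peak at 8 of the 9 genes, all but Csf2ra.

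With the 5000 strongest peaks per list, ADIPO had 4 of the 29 genes (Cd68, Cd14, Fcer1g and Siglec1), where 9.60% of all genes were called, and PIM had 14, where 7.99% were called. Of these 4, Cd14 and Siglec1 had the peak over their own TSS and no other promoter. Distal regions nearest to macrophage identity genes were ADIPO-only in 8 cases, shared in 8 and PIM-only in 72. Of the 8 ADIPO-only regions 5 were nearest to Tlr4, and the others to Mertk, Siglec1 and Mrc1. ADIPO-only regions averaged 0.276 per gene of this list, against 0.581 over all genes, and PIM-only regions 2.48, against 0.744.

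**Figure D3:**
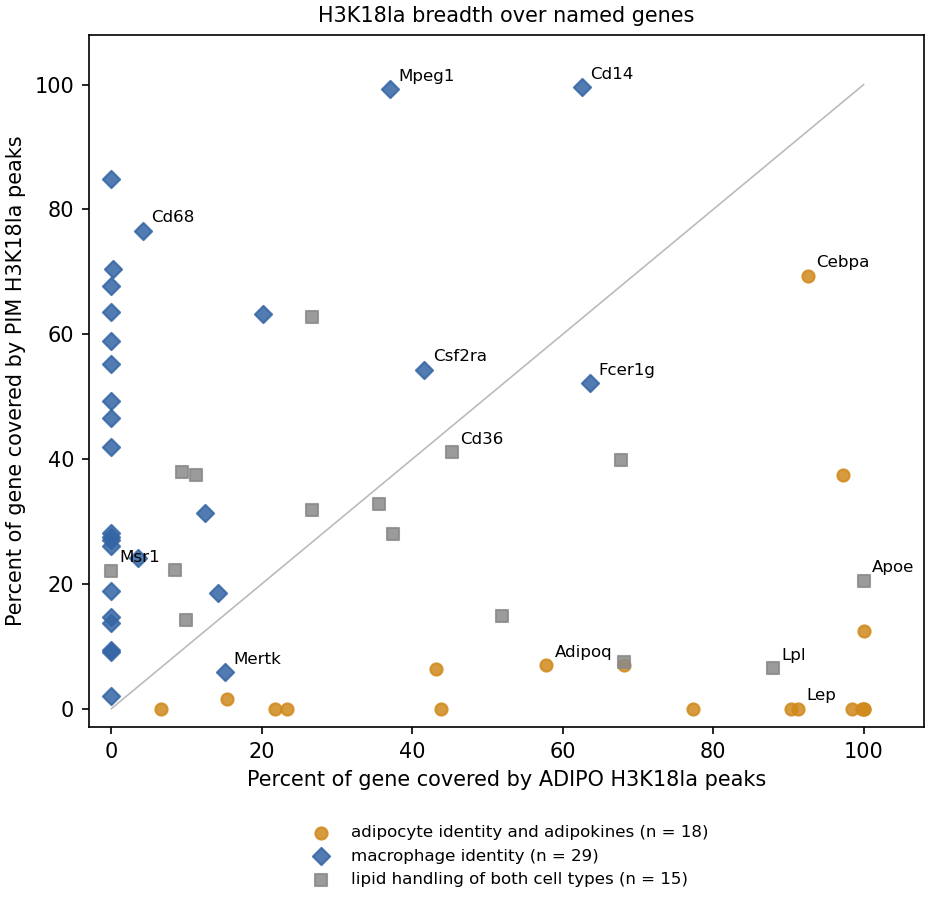
Each point is an adipocyte identity (circles, n = 18), macrophage identity (diamonds, n = 29) or lipid handling gene (squares, n = 15), placed by the percent of the gene (from 2000 bp before the first TSS to the gene end) covered by ADIPO peaks on the horizontal and by PIM peaks on the vertical axis, and the line marks equal coverage. Of 29 macrophage identity genes, 18 stand at 0% in ADIPO and 27 lie above the line, while all 18 adipocyte identity genes lie below it.

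Of 16 pan-leukocyte genes, none with a CpG-rich TSS, 16 were called in PIM and 3 in ADIPO (Cd37, Vav1 and Ptpn6), or 18.8%, against 26.5% of all such genes in PIM and 28.9% in ADIPO. Without Ptprc these were 15 and 3 of 15. Itgb2, Ptpn6, Laptm5 and Cd37 led by PIM coverage, with 50.6%, 44.9%, 42.6% and 36.1%, against 2.54%, 12.1%, 0% and 39.5% in ADIPO. The ADIPO peak at Ptpn6 also lay over the promoter of Grcc10. At Cd37 the ADIPO peak overlapped no PIM peak, so the lists marked different bases of this gene. No ADIPO-only distal region was nearest to a gene of this list, and 48 PIM-only regions were.

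Of 25 genes of inflammatory and repair macrophages, 22 were called in PIM and 7 in ADIPO (28.0%), against 38.6% and 45.6% of all genes. Among the 24 without a CpG-rich TSS ADIPO called 6 (25.0%), near the 28.9% of all such genes, and PIM 87.5%, against 26.5%. With 5000 peaks per list PIM called 12 and ADIPO 1, where 7.99% and 9.60% of all genes were called. With peaks unmerged and a 50% overlap these were 16 and 1, where 16.0% and 21.3% of all genes were called. Cxcl3, Cxcl2, Ccl2 (chemokines) and Il1rn (the interleukin 1 receptor antagonist) were covered over 93.7%, 89.9%, 85.0% and 79.5% in PIM and over 18.8%, 0%, 0% and 0% in ADIPO. Of the 7 ADIPO calls, Vegfa, the vascular growth factor, stood apart. Its ADIPO peak was 29670 bp wide at rank 55 and covered 93.0% of the gene, while its PIM peak was 805 bp wide at rank 29532 and did not overlap it. The other 6 ADIPO peaks (Cxcl1, Ccl6, Ccl7, Ccl9, Thbs1 and Chil3) ranked 14430 to 26483. Chil3 was the only one without a PIM peak. Vegfa was named after its values were seen. Peaks over chemokine and Fc receptor genes, which lie in clusters of similar copies, may hold reads from more than 1 copy.

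Of 19 macrophage transcription factors, 18 were called in PIM and 15 in ADIPO, against 38.6% and 45.6% of all genes, and 14 in both lists. With 5000 peaks per list PIM called 8 and ADIPO 6, where 7.99% and 9.60% of all genes were called. Spi1, which encodes PU.1 and is named for the motif described below, had an ADIPO peak of 2399 bp at rank 4615 and a PIM peak of 12171 bp at rank 334. Bhlhe40, Cebpb and Bhlhe41 were among those with the highest PIM coverage, with 92.9%, 56.1% and 53.5%, and had 68.8%, 64.1% and 27.3% in ADIPO. Irf5, Tfec, Fli1 and Batf were called in PIM only. In ADIPO, 78.9% of this list and 31.0% of the identity list were called. Among the 10 factors with a CpG-rich TSS ADIPO called 9, against 65.5% of all such genes, and among the other 9 it called 6 (66.7%), against 28.9%.

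Resident and lipid-associated macrophage genes were called at 10 of 15 in PIM (66.7%) and 7 in ADIPO (46.7%), where the share of all genes was 45.6%. Lgals3 (galectin-3), Ctsb, Ctsl (cathepsins) and Cd9 led in PIM with 69.1%, 62.6%, 54.2% and 49.2%, and had 22.3%, 41.0%, 22.6% and 0% in ADIPO. Gas6 and Cbr2 were called in ADIPO only. Lyve1, Timd4 and Retnla were called in neither list. MHC class II genes were called at 6 of 7 in PIM, against 38.6% of all genes, and at 2 in ADIPO (H2-Eb1 and H2-DMa). Of the 6 without a CpG-rich TSS PIM called 83.3%, against 26.5% of all such genes, and ADIPO 16.7%, against 28.9%.

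Markers of other cell types were called in part. In ADIPO and PIM they were called at 3 and 4 of 17 endothelial, 7 and 4 of 17 fibroblast and progenitor, 5 and 2 of 13 mural, 2 and 1 of 10 mesothelial, 4 and 2 of 17 skeletal muscle, 2 and 5 of 18 T, B and NK cell, 5 and 9 of 14 neutrophil, and 1 and 1 of 22 genes of other organs. Among markers without a CpG-rich TSS, the ADIPO share was 40.0% for fibroblast and 35.7% for neutrophil genes, against 28.9% of all such genes, and below this for endothelial (23.1%), mural (22.2%), skeletal muscle (3 of 15), mesothelial (12.5%), T, B and NK cell (11.1%) and other organ genes (6.25%). The PIM share was 64.3% for neutrophil, 30.8% for endothelial and 27.8% for T, B and NK cell genes, against 26.5%, and below this for mural (22.2%), fibroblast (3 of 15), mesothelial (12.5%), skeletal muscle (6.67%) and other organ genes (6.25%). With 5000 peaks per list PIM called 0 and ADIPO 1 of the 14 neutrophil genes, where 7.99% and 9.60% of all genes were called. With peaks unmerged and a 50% overlap these were 4 and 2, where 16.0% and 21.3% of all genes were called. The part of these other cell types in the results was not tested. Among neutrophil genes in PIM, Mmp8 and S100a8 led with 73.1% and 40.1% covered. Among ADIPO calls, Elane, a neutrophil protease gene, lay within the 23260-bp peak of its neighbour Cfd. Among fibroblast and muscle markers, Ly6a and Tnni2 stood high in PIM, with 95.6% and 74.9% of the gene covered and 0% in ADIPO. By rank, Col3a1, Dcn and Dpt led the fibroblast calls in ADIPO with peaks at ranks 1285, 1673 and 1833, and Mcam the mural ones with 79.0% of the gene covered. In the GAS H3K18la list all 17 endothelial and 14 of 17 skeletal muscle genes were called, against 37.0% of all genes.

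Housekeeping genes were called at 13 of 14 in ADIPO and 10 in PIM, against 45.6% and 38.6% of all genes. The 9 with a CpG-rich TSS were called at 88.9% and 66.7%, against 65.5% and 53.0% of all such genes. Genes of lactate transport, glycolysis and histone acylation were called at 19 and 15 of 22, against 45.6% and 38.6% of all genes. The 13 of them with a CpG-rich TSS were called at 84.6% and 69.2%, against 65.5% and 53.0% of all such genes, and the other 9 at 88.9% and 66.7%, against 28.9% and 26.5%. Hcar1, the lactate receptor of adipocytes, was covered over 95.5% in ADIPO and had no PIM peak. Hk3, a hexokinase of myeloid cells, was covered over 32.9% in PIM and 0% in ADIPO and was the only gene of this list called in PIM alone. Ldha, which makes lactate from pyruvate, was called in both, at rank 4991 in ADIPO and 6991 in PIM. Hk2 was covered over 66.8% and 14.6%, Pfkfb3 over 65.9% and 19.1%, and Pkm over 46.3% and 29.6%. Hk3 and Ldha were named after their values were seen.

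Peaks of other lists did not enter the classes. ADIPO H3K27ac overlapped 51.0% of ADIPO-only distal regions (50.1% to 51.9%) and 1.76% of PIM-only ones. PIM H3K27ac overlapped 32.9% of PIM-only and 1.61% of ADIPO-only distal regions. The PIM H3K27ac list came from a single sample and the ADIPO one from 2. It also covered fewer bases (26969761) than the ADIPO one (53798713), so the 2 shares are not on an equal footing. Both marks together were found at 42.7% of shared distal regions and at 1.01% and 1.08% of the ADIPO-only and PIM-only ones. Neither H3K27ac list had a peak at 48.4% of ADIPO-only and 66.4% of PIM-only distal regions. Among the 5000 strongest peaks per list the shares with H3K27ac of the own cell type were 98.3% and 91.0%, and with peaks unmerged and a 50% overlap 42.6% and 11.4%.

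BMDM are macrophages from another source, and each BMDM list came from a single sample, as did the myoblast list used below. BMDM H3K18la overlapped 39.4% of PIM-only and 1.69% of ADIPO-only distal regions, and ADIPO-only minus PIM-only was -37.7 points (-38.5 to -36.9). With 5000 peaks per list the shares were 87.7% and 11.5%, and with peaks unmerged and a 50% overlap 21.3% and 0.480%. Of shared distal regions it overlapped 55.6%. GAS H3K18la, from whole muscle, overlapped 36.6% of ADIPO-only and 26.3% of PIM-only distal regions, a difference of 10.3 points (9.18 to 11.4). H3K18la of the cultured muscle cells went the other way, with 25.5% and 31.8% for myotubes (-6.28 points, -7.34 to -5.21) and 7.36% of ADIPO-only regions for myoblasts (-7.65 points, -8.38 to -6.91). Serum-grown stem cells (ESC-ser) overlapped 10.00% and 10.7%, and their difference of -0.685 points had an interval that included 0 (-1.41 to 0.0413). For stem cells in 2i medium these were 12.6% and 14.4%, a difference of -1.73 points (-2.54 to -0.917). At promoters H3K27ac was less divided. PIM H3K27ac overlapped 33.7% of ADIPO-only promoter regions, and ADIPO H3K27ac 17.9% of PIM-only ones. Of shared promoter regions, 82.4% had both. PIM H3K27me3, a mark of repression, lay at 19.7% of ADIPO-only and 10.1% of PIM-only promoter regions, a difference of 9.55 points (8.33 to 10.8).

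**Figure D4:**
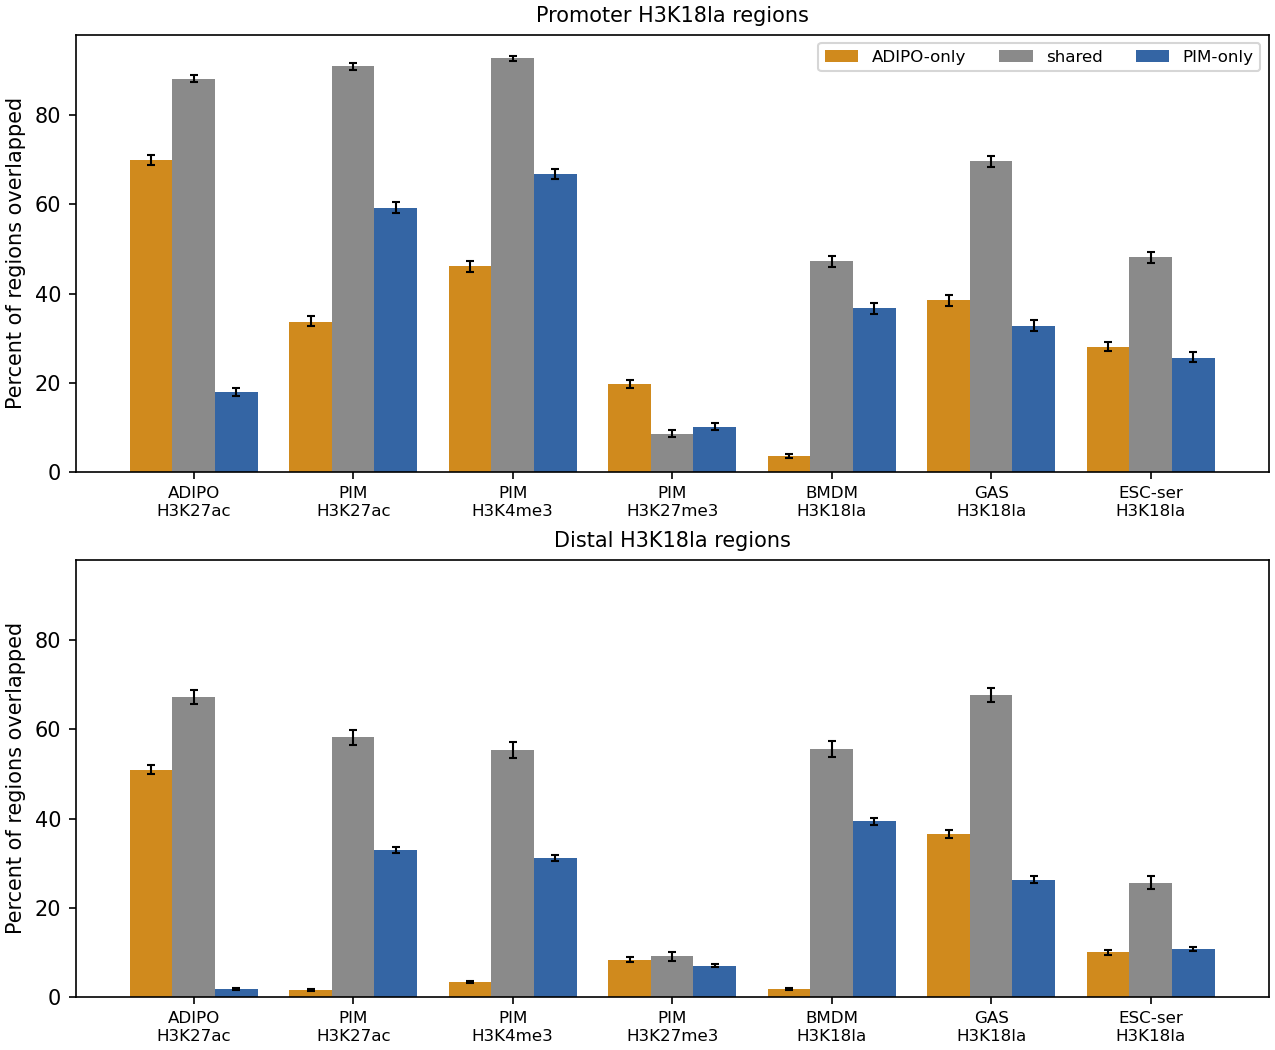
Bars give the percent of ADIPO-only, shared and PIM-only H3K18la regions, promoter above and distal below, that a peak of each list on the horizontal axis overlapped by at least 1 bp, with 95% Wilson intervals (counting error only). At distal regions ADIPO H3K27ac stands at 51.0% of ADIPO-only and 1.76% of PIM-only regions, and BMDM H3K18la at 1.69% and 39.4%.

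Among the 28 pairs of the 8 H3K18la lists, ADIPO with PIM had place 9 by the Jaccard index (bases in both lists over bases in either), at 0.130. ADIPO with GAS had place 5 at 0.188 and PIM with BMDM place 2 at 0.254. The ADIPO and GAS lists shared 16.6% of distal regions, and the BMDM and PIM lists 35.9%. These pairs share a list with the pair compared here, so they are given side by side.

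The letters of 5 motifs were counted in the 300 bases around the highest coverage of each distal peak. PU.1 letters (GAGGAAGT) were found in 9.46% of PIM peaks that overlapped no ADIPO peak and in 1.66% of ADIPO peaks that overlapped no PIM peak, and ADIPO minus PIM was -7.81 points (-8.32 to -7.30). Over all 34682 distal peaks the share was 5.85%, and over 31396 RefSeq promoters 3.25%. AP-1 letters (TGANTCA) were found in 33.2% and 10.3%, against 23.4% of all distal peaks and 7.84% of promoters. C/EBP letters (TTGNNCAA) went the other way, with 7.79% in PIM and 11.6% in ADIPO, against 9.72% and 6.30%. Peaks that overlapped the other list lay between these values for PU.1, at 3.27% in ADIPO and 6.79% in PIM. The mean GC content of the windows was 48.9% for exclusive ADIPO and 47.9% for exclusive PIM peaks. Letters for a direct repeat bound by PPARγ (2 copies of AGGNCA, 1 base apart) were found in 1.07% of exclusive ADIPO and 0.723% of exclusive PIM windows, against 0.900% of all distal peaks and 0.379% of promoters. Those of nuclear factor I (TTGGC and GCCAA, 5 bases apart) were found in 0.0828% and 0.0194%, against 0.0692% and 0.0382%. These shares rest on 10 exclusive ADIPO and 3 exclusive PIM windows. In ADIPO and PIM peaks that overlapped the other list, nuclear factor I letters were found in 0.146% and 0.162%. Those of the direct repeat were found there in 1.11% and 0.892%. Both strands were searched. A match describes the letters only and is not a binding site.

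**Figure D5:**
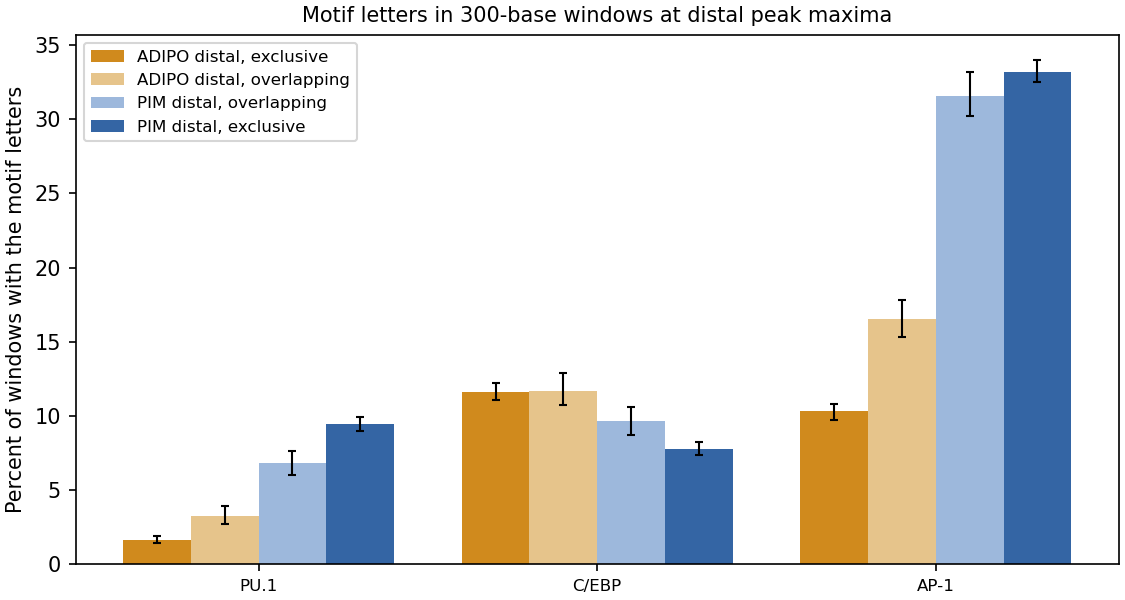
Bars give the percent of 300-base windows at the maxima of distal peaks that held the letters of PU.1, C/EBP or AP-1 motifs, with 95% Wilson intervals, for ADIPO and PIM peaks that overlapped the other list or not (exclusive). PU.1 letters stand at 1.66% and 9.46% in exclusive ADIPO and PIM peaks, AP-1 letters at 10.3% and 33.2%.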

How the data were processed

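The 24 deposited peak lists came from 41 CUT&Tag samples in 24 groups of cell type and mark. Per the submitters' processing notes, reads were trimmed with Trim Galore 0.6.6 and aligned to mm10 with Bowtie2 2.4.4, fragment coverage was computed with bedtools 2.30 and peaks were called with SEACR 1.3. The authors pooled replicates where a group had several samples, and kept the top 1% of regions in stringent mode. Each deposited list gives the total and maximum signal, whole numbers of fragment coverage not scaled for depth. The study's methods state that peaks in blacklisted regions were removed. No blacklist was used here, so this was not checked in the deposited lists.

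Peaks on chromosomes 1 to 19 were merged and classed with Python 3.11.15, numpy 2.4.6 and pandas 2.3.3. Promoters were 2000 bp on either side of the TSS of 141767 GENCODE M21 transcripts, and a gene was called where a peak overlapped any of its promoters. A TSS was CpG-rich where the 1000 bp around it reached 50% GC and a CpG ratio (observed to expected) of 0.6. The 21 gene lists, of which 359 of 360 entries were measured, and the regions compared were chosen with earlier results of these data known. Genes named were the macrophage identity genes called in ADIPO, the sort genes, up to 4 members per list by gene coverage (ADIPO peaks, or PIM peaks for macrophage and leukocyte lists), up to 4 that go against their list, and 10 genes per class by signal; a few genes that this rule takes are not reported here. Regions named were the leading 3 per class that were at most 80% soft-masked, and 6 were passed over. No test between groups was possible with 1 pooled list each. Interval functions were checked on simulated data against bedtools 2.31.1. The alternatives were 5000 peaks per list, lists of equal bases, promoters of 1000 bp, protein-coding TSS, a 50% overlap and chromosome X added.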

Additional observations from a re-analysis of the deposited data

Results flagged for a closer look

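Chromosome Y was left out of every comparison, and a signal appeared there. The ADIPO H3K18la list held 14 peaks and the PIM list 20 on this chromosome, although the study's methods describe female mice. The ADIPO peak at Eif2s3y was 1754 bp wide with a total signal of 38896, and that at Uty was 1188 bp wide with 22601. In PIM the peaks at Uty, Eif2s3y and Ddx3y had total signals of 92000, 63588 and 67267. The H3K27ac lists of ADIPO and PIM had peaks at the same promoters as the H3K18la list of their cell type. The GAS H3K18la list held 9 peaks on chromosome Y, none at these genes, and a peak at the Xist promoter. The same held for the GAS H3K4me3 list with 22 peaks and the H3K18la list of stem cells in 2i medium with 20. The sex of the animals was not tested further.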

How the results depend on the processing

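No paired analysis was possible because replicates were pooled before peaks were called, and for the same reason no replicate could be left out. The order of promoter over distal sharing held under the 6 alternatives. Its size moved under 3 of them and stayed near 22.0 points with equal bases (21.5) and chromosome X added (22.1). With unmerged peaks and a 50% overlap it was 22.8 points. That alternative counts single peaks of both lists and not merged regions, so its percents cannot be set beside those of the main result. With 5000 peaks per list (other lists kept whole) the shared percent was 11.4 at promoters and 5.65 at distal regions, a difference of 5.72 points. ADIPO-only regions were then 45.1% of distal ones, and 98.3% of ADIPO-only and 91.0% of PIM-only distal regions had H3K27ac of their cell type. Macrophage identity genes were called at 4 in ADIPO and 14 in PIM, and adipocyte identity genes at 1 in PIM. Of all genes ADIPO then called 9.60% and PIM 7.99%. With lists of equal bases the values were 30.7%, 9.18% and 32.4% ADIPO-only, with H3K27ac at 63.1% of ADIPO-only distal regions. With promoters of 1000 bp the shared promoter percent was 35.1 and the difference 25.2 points. With protein-coding TSS the shared percents were 38.6 and 10.9, the difference 27.7 points, and H3K27ac shares 52.0% and 34.2%. With unmerged peaks and a 50% overlap the shared percents, counted per peak, were 38.7 and 15.9, ADIPO-only 37.3% and H3K27ac shares 42.6% and 11.4%. By 1 bp, 47.6% of ADIPO and 50.8% of PIM promoter peaks overlapped the other list, and 22.1% and 19.3% of distal peaks. With the 50% overlap 1 adipocyte identity gene was called in PIM, where 16.0% of all genes were. Requiring a peak over the gene's own TSS, an alternative chosen after seeing the data, left 3 adipocyte identity genes in PIM and 7 macrophage identity genes in ADIPO. Of all genes it left 28.4% in PIM and 40.3% in ADIPO. Fewer peaks or stricter overlap lower these counts by construction; otherwise the cause was not tested. Leaving out genes of the sorted proteins, also chosen after seeing the data, left 9 macrophage identity genes in ADIPO and 26 in PIM. The other 45 values of these 10 results stayed within the interval or 1.5 times the count. Of the values for other lists and genes, 176 did so and 84 did not, among them BMDM H3K18la at PIM-only and ADIPO-only distal regions with 5000 peaks (87.7% and 11.5%) and with unmerged peaks and a 50% overlap (21.3% and 0.480%). With all annotated genes as background, 26.5% were called in ADIPO and 23.4% in PIM. The peak lists carry no depth, and an uncalled promoter means that no peak was called, not that the mark is absent.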
